A study of Mus musculus with 20 samples.

Results

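The genes described here store glucose as glycogen in the liver, release it again or make it anew. They were selected on measured values in part, as a list of 9 genes out of the 18193 genes that the arrays measured, each read from its brightest probe set among those assigned to that gene alone. All 9 were found: the glycogen-targeting subunits Ppp1r3b, Ppp1r3c and Ppp1r3g, liver glycogen synthase Gys2, liver glycogen phosphorylase Pygl, the regulatory protein Gckr, and the gluconeogenic enzymes Pck1, G6pc and Fbp1. Ppp1r3g was put on the list because it is among the largest falls of these data. It had the 3rd lowest log2 fold change of the 18193 genes in CL against NC, the 9th lowest in CL + AX against NC and the 3rd lowest in CL + VE against NC. The values of the 9 genes against NC are therefore a description, without a test. The tests given for the 9 genes are those among the CL diets, where Ppp1r3g was not among the 50 largest falls.

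Liver RNA of 20 male C57BL/6J mice, 5 in each group, was measured on Affymetrix arrays that cover the mouse genome, with an array for each animal. The CL + AX mice ate the CL diet, rich in fat, cholesterol and cholate, with 0.02% astaxanthin, a carotenoid, and the CL + VE mice received the same diet with 0.02% vitamin E. The CL mice received that diet without a supplement, and the NC mice received normal CRF-1 chow. Feeding began at 7 weeks of age and lasted 12 weeks, and livers were collected after a 2 h fast. All 3 CL diets held 0.5% sodium cholate and 1.25% cholesterol, and 60% of their calories came from fat. NC differed from CL in all of these components at once, so their separate effects cannot be told apart.

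As background, a liver after a meal takes up glucose, traps it as glucose 6-phosphate and stores it as glycogen. Glycogen synthase is switched on and glycogen phosphorylase is switched off by protein phosphatase 1, which is brought to the glycogen particle by the targeting subunits of the Ppp1r3 family. Between meals, phosphorylase frees glucose units, phosphoenolpyruvate carboxykinase (Pck1) and fructose bisphosphatase (Fbp1) carry the flow from lactate, amino acids and glycerol towards glucose 6-phosphate, and glucose-6-phosphatase (G6pc) lets free glucose leave the cell.

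Promoter sequences were matched by symbol to RefSeq (build GRCm38.p6), and 7 of the 9 genes had one. Ppp1r3b and Gys2 did not. The 250 bases before the start are shown for the 2 targeting subunits with the largest differences against NC and for Pygl and Gckr, whose signals moved together between mice of 1 diet. They lie at chr13:35967656-35967905 (plus strand) for Ppp1r3g, chr19:36736605-36736854 (minus strand) for Ppp1r3c, chr12:70227684-70227933 (minus strand) for Pygl and chr5:31297313-31297562 (plus strand) for Gckr. Capitals mark a match, on either strand, to any of 5 motifs: the E-box CACGTG, the cAMP response element TGACGTCA, its core TGACG (which lies within the whole element on both strands), a FOXO site GTAAACA and a TATA box TATAAA.
Ppp1r3g: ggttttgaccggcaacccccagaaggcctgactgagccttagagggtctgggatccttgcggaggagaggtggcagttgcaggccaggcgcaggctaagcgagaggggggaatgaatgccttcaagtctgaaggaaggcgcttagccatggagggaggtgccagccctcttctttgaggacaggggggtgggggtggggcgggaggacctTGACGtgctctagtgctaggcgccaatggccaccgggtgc
Ppp1r3c: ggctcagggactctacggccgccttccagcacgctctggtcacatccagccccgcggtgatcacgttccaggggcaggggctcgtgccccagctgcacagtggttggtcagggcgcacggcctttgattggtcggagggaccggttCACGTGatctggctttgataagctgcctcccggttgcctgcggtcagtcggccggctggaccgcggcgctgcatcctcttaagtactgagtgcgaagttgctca
Pygl: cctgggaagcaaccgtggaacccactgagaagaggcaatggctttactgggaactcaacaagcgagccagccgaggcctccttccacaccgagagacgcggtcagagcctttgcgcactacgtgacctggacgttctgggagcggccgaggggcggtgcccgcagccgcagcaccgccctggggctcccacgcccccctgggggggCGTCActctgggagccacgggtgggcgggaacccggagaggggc
Gckr: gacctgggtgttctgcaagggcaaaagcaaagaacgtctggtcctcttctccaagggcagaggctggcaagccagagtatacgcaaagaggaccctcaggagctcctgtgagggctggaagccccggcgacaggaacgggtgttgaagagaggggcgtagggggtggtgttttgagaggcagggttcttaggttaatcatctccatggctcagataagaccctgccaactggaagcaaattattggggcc
The core TGACG began 40 bases before the start of Ppp1r3g, 44 bases before that of Pygl on the other strand and 90 bases before that of Pck1, also on the other strand. It occurred in 17.8% of 32851 mouse promoters of this length. Ppp1r3c had the E-box 104 bases before its start (6.02% of promoters), and G6pc had a TATA box 29 bases before its start (12.4%). The 250 bases of Gckr and Fbp1 held none of the 5 motifs. The whole cAMP response element (1.55%) and the FOXO site (3.17%) were in none of the 7 promoters. A match is a run of letters and no measured site.

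Signals below are log2 signals after quantile normalization, so that 1 unit is a doubling, and they compare arrays for 1 gene and not genes with each other. The deposited signals were not on 1 scale across arrays, with array medians of 26.4 to 27.8 in CL + AX, 17.1 to 20.8 in CL + VE, 19.4 to 24.9 in CL and 13.0 to 18.9 in NC. For this reason values as deposited, after median centring or after scaling to a trimmed mean are also given where they change a direction. The highest correlation between any 2 arrays over all probe sets was 0.940, and no array was a copy of another. The mean level of 16 hepatocyte markers was 12.7 to 12.8 in CL + AX, 12.7 to 12.8 in CL + VE, 12.8 on each CL array and 12.8 to 12.9 in NC, so the defining hepatocyte transcripts were bright in all groups. The calls of these markers depend on the scaling. In CL against NC 1 of the 16 markers rose and 1 fell in limma, after quantile normalization and also as deposited. Their median log2 difference was -0.007 and -0.013 in these settings. With median centring 0 rose and 14 fell (median log2 difference -0.51), and after scaling to a trimmed mean 0 rose and 10 fell. RNA quality measures differed between NC and the other diets and also among the CL diets. The Gapdh control signal at the 3′ end over that at the 5′ end was -0.14 ± 0.051 (log2, SD, n = 5) in CL + AX, -0.033 ± 0.12 in CL + VE, -0.17 ± 0.062 in CL and 0.57 ± 0.14 in NC. The same ratio for Actb was 1.16 ± 0.070 in CL + AX, 1.43 ± 0.082 in CL + VE, 1.14 ± 0.086 in CL and 1.66 ± 0.17 in NC, and for Pcx it was 5.08 ± 0.18, 5.46 ± 0.17, 4.89 ± 0.33 and 6.00 ± 0.39 in this order. The part of RNA quality in the differences between diets was not tested.

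**Figure D1:**
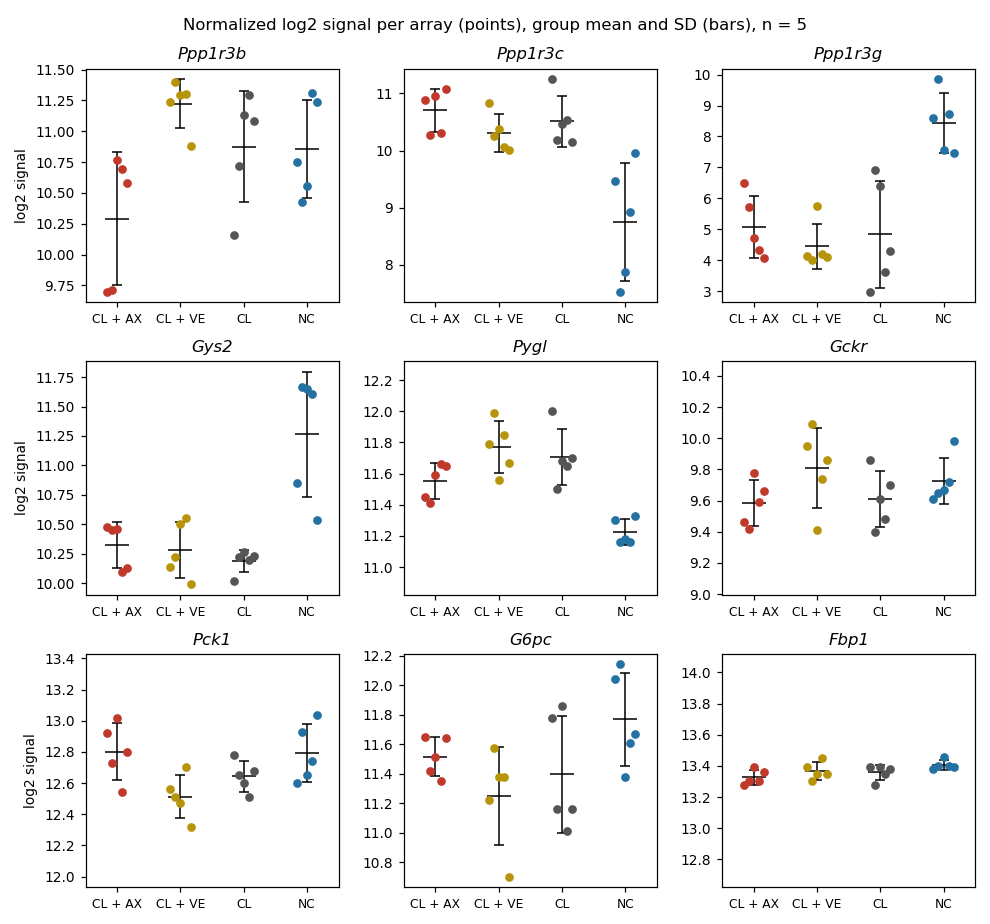
Normalized log2 signal (vertical axis) of each of the 9 genes on each of the 20 arrays (points), by diet, with the group mean and SD (bars, n = 5). The vertical scales differ between panels. Ppp1r3g lay at 6.91 or below on all 15 CL-diet arrays and at 7.47 or above on all 5 NC arrays, while Fbp1 kept to 13.28 to 13.46 on all arrays.

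The targeting subunits moved apart. Ppp1r3g was lower on every CL diet than on NC, Ppp1r3c was higher, and Ppp1r3b was close to NC in CL. Ppp1r3g encodes a subunit that brings protein phosphatase 1 to glycogen, and its liver transcript is known in mice to respond to fasting and feeding. Its normalized log2 signals were 6.49, 5.71, 4.71, 4.35 and 4.09 in CL + AX, 4.14, 4.02, 5.75, 4.22 and 4.11 in CL + VE, 2.99, 6.91, 6.40, 3.63 and 4.30 in CL, and 8.59, 9.85, 7.55, 8.73 and 7.47 in NC. All 15 CL-diet arrays lay below all 5 NC arrays. The CL group was the widest, with 2 arrays at 6.40 and 6.91 and 3 at 4.30 or below. The log2 difference was -3.37 in CL + AX, -3.99 in CL + VE and -3.59 in CL, each against NC and each with an SE of 0.64. The direction was the same under all scalings, but as deposited 1 CL mouse had a linear signal of 139.6, just above the lowest NC mouse at 137.7, so that the groups touch on that scale. Ppp1r3g is a dim probe set on the CL diets, where the mean was 5.07 in CL + AX, 4.45 in CL + VE and 4.84 in CL beside a median of 4.21 over all probe sets, so the size of its difference rests on dim signals. With a pseudocount of 16 it was -2.82 in CL + AX, -3.23 in CL + VE and -2.85 in CL. Leaving out single arrays moved the difference between CL and NC over -4.11 to -3.13.

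Ppp1r3c encodes another subunit that holds synthase, phosphorylase and the phosphatase together on glycogen. Its normalized log2 signals were 10.89, 10.28, 10.96, 10.30 and 11.08 in CL + AX, 10.83, 10.26, 10.37, 10.07 and 10.01 in CL + VE, 11.25, 10.18, 10.46, 10.53 and 10.15 in CL, and 9.47, 7.53, 7.88, 8.93 and 9.96 in NC. The lowest CL-diet array, at 10.01, lay above the highest NC array, at 9.96, and the NC mice spread from 7.53 to 9.96. The differences against NC were 1.95 in CL + AX, 1.55 in CL + VE and 1.76 in CL (SE 0.33 each), or 3.86-fold, 2.94-fold and 3.39-fold. A second, dimmer probe set of Ppp1r3c gave 2.28, 1.69 and 2.19 in the same diets (SE 0.28 each), again with no overlap with NC.

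Ppp1r3b encodes the subunit named for liver, where it is known to be abundant. Its normalized log2 signals were 9.70, 9.71, 10.77, 10.69 and 10.58 in CL + AX, 11.24, 11.40, 11.29, 11.30 and 10.88 in CL + VE, 10.16, 10.72, 11.13, 11.29 and 11.08 in CL, and 10.75, 10.43, 10.56, 11.31 and 11.24 in NC. CL and NC covered nearly the same range, with a log2 difference of 0.02 (SE 0.23) that was 0.25 as deposited and -0.25 with median centring. Against NC the difference was -0.57 in CL + AX and 0.37 in CL + VE (SE 0.23 each), and in both cases the groups overlapped.

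Of the 2 enzymes that build and break the glycogen chain, the signal of the synthase was lower and that of the phosphorylase was higher on the CL diets. Gys2 had normalized log2 signals of 10.48, 10.45, 10.46, 10.09 and 10.13 in CL + AX, 10.14, 10.22, 10.50, 10.55 and 9.99 in CL + VE, 10.02, 10.22, 10.26, 10.20 and 10.23 in CL, and 10.85, 11.67, 11.65, 11.61 and 10.54 in NC. NC split into 3 mice near 11.6 and 2 mice at 10.54 and 10.85, and only 1 CL + VE array, at 10.55, reached the lowest NC array. The differences against NC were -0.94 in CL + AX, -0.99 in CL + VE and -1.08 in CL (SE 0.17 each), which puts NC 1.92, 1.98 and 2.11 times higher. Gys2 stayed below NC in all 3 diets under all scalings, between -1.40 and -0.63.

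Pygl had normalized log2 signals of 11.45, 11.41, 11.59, 11.66 and 11.65 in CL + AX, 11.79, 11.99, 11.56, 11.85 and 11.67 in CL + VE, 12.00, 11.50, 11.68, 11.65 and 11.70 in CL, and 11.30, 11.16, 11.18, 11.16 and 11.33 in NC. All 15 CL-diet arrays lay above all 5 NC arrays, by a small step. The differences against NC were 0.33 in CL + AX, 0.54 in CL + VE and 0.48 in CL (SE 0.087 each), or 1.25-fold, 1.46-fold and 1.39-fold. These steps hang on the scaling: with median centring they were -0.18 in CL + AX, which turns the direction, 0.34 in CL + VE and 0.16 in CL. That setting also moved the median of all probe sets by -0.15 in CL + AX, -0.05 in CL + VE and -0.10 in CL.

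Gckr encodes a regulatory protein of hepatic glucose phosphorylation. Its normalized log2 signals were 9.46, 9.42, 9.78, 9.59 and 9.66 in CL + AX, 9.95, 10.09, 9.41, 9.74 and 9.86 in CL + VE, 9.86, 9.40, 9.61, 9.48 and 9.70 in CL, and 9.61, 9.65, 9.67, 9.72 and 9.98 in NC. All 4 groups overlapped. The differences against NC were -0.15 in CL + AX, 0.08 in CL + VE and -0.12 in CL (SE 0.11 each), and all 3 were between 0.20 and 0.29 as deposited. With median centring they were -0.48 in CL + AX, -0.03 in CL + VE and -0.29 in CL.

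**Figure D2:**
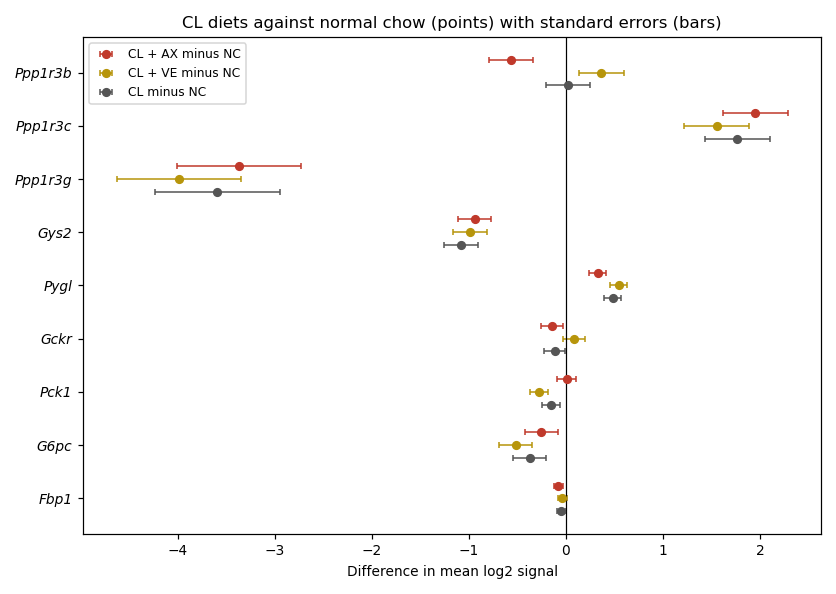
Difference in mean log2 signal (horizontal axis) between each CL diet and NC for the 9 genes, with standard errors (bars), 5 arrays per group. Ppp1r3g (-3.99 to -3.37) and Gys2 (-1.08 to -0.94) lie left of 0, Ppp1r3c (1.55 to 1.95) and Pygl (0.33 to 0.54) lie right of it, although Pygl in CL + AX turns to -0.18 with median centring, and G6pc lies at -0.52 to -0.25, with Pck1 and Fbp1 closer to 0 in these quantile-normalized values.

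The 3 enzymes of gluconeogenesis and glucose release differed from NC, on their brightest probe sets, by at most 0.52 on the log2 scale after quantile normalization, and by up to 0.83 with median centring. Pck1 encodes the cytosolic phosphoenolpyruvate carboxykinase, an early committed step of the pathway. Its normalized log2 signals were 12.92, 12.73, 13.02, 12.54 and 12.80 in CL + AX, 12.56, 12.51, 12.47, 12.70 and 12.32 in CL + VE, 12.78, 12.65, 12.60, 12.51 and 12.68 in CL, and 12.60, 12.93, 12.65, 12.74 and 13.04 in NC. CL + VE was the lowest group and CL + AX and NC the highest, with overlap throughout after quantile normalization. Against NC the log2 difference was 0.01 in CL + AX, -0.28 in CL + VE and -0.15 in CL (SE 0.094 each). With median centring these were -0.64, -0.59 and -0.61, and as deposited 0.13, -0.37 and -0.11. After median centring or scaling to a trimmed mean, all CL-diet arrays lay below all NC arrays on this probe set.

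The probe sets of Pck1 did not give 1 picture. The second brightest had normalized log2 signals of 10.57, 10.20, 10.61, 10.37 and 9.85 in CL + AX, 10.00, 9.79, 10.07, 10.15 and 9.30 in CL + VE, 10.48, 10.22, 10.63, 10.20 and 10.27 in CL, and 9.78, 9.59, 9.50, 9.93 and 9.57 in NC. On this probe set all 5 CL arrays lay above all 5 NC arrays, and the differences against NC were 0.65 in CL + AX, 0.19 in CL + VE and 0.69 in CL (SE 0.15 each), opposite in sign to the brightest probe set in CL and CL + VE. The remaining, dim probe set differed by -0.59, -0.51 and -0.71 in the same order (SE 0.37 each). The direction of Pck1 between CL and NC is therefore not settled by these arrays.

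G6pc, which encodes the phosphatase of the last step, had normalized log2 signals of 11.65, 11.42, 11.51, 11.35 and 11.64 in CL + AX, 11.22, 11.57, 11.38, 11.38 and 10.70 in CL + VE, 11.78, 11.16, 11.86, 11.01 and 11.16 in CL, and 12.04, 12.14, 11.38, 11.61 and 11.67 in NC. CL held 2 mice near 11.8 and 3 near 11.1, and every CL diet overlapped NC in these values. With median centring CL + AX lay wholly below NC. The differences against NC were -0.25 in CL + AX, -0.52 in CL + VE and -0.37 in CL (SE 0.17 each), negative under all scalings. Fbp1, which encodes the liver fructose bisphosphatase, varied little between arrays, with means of 13.33 ± 0.046 in CL + AX, 13.37 ± 0.054 in CL + VE, 13.36 ± 0.046 in CL and 13.41 ± 0.032 in NC (SD, n = 5 each). Its differences against NC were -0.08, -0.04 and -0.05 (SE 0.048 each). The size of these Fbp1 differences depends on the scaling. With median centring they were -0.83 in CL + AX, -0.37 in CL + VE and -0.55 in CL, whereas as deposited the CL difference was -0.05.

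As a count, groups did not overlap for 4 of the 9 genes in CL against NC (Ppp1r3c and Pygl higher, Ppp1r3g and Gys2 lower), beside 15.9% of all 18193 genes. They did not overlap for the same 4 genes in CL + AX against NC, beside 16.9%, and for these genes other than Gys2 in CL + VE against NC, beside 12.3%. As deposited, only Ppp1r3c was without overlap in CL, only Ppp1r3c and Ppp1r3g in CL + AX and only Ppp1r3g in CL + VE. The shares of all genes were then 13.2%, 26.4% and 8.11%. With median centring Pygl and Ppp1r3c overlapped NC in all 3 diets, whereas Pck1 and Fbp1 lay wholly below NC in all 3 and G6pc in CL + AX. Without overlap were then 4, 5 and 4 of the 9 genes in CL, CL + AX and CL + VE, beside 16.2%, 21.2% and 12.0%. After scaling to a trimmed mean Pck1 lay wholly below NC in all 3 diets and Fbp1 in CL + AX. Since the list was drawn up with these contrasts known, nothing is read from these counts. The median of the 9 log2 differences was -0.15 in CL + AX, -0.04 in CL + VE and -0.12 in CL, beside -0.02, 0.0016 and -0.04 over all genes. All 3 comparisons share the 5 NC arrays.

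Among the CL diets the supplements could be tested, and no difference of the 9 genes passed the adjusted p of limma. At an adjusted p under 0.05, 0% of the 18193 genes were called in each of these 3 comparisons. At an unadjusted p under 0.05, limma gave 1 of the 9 genes in CL + AX against CL, 0 in CL + VE against CL and 3 in CL + AX against CL + VE, beside 8.05%, 7.55% and 10.2% of all genes. Groups did not overlap for 0, 0 and 1 of the 9, beside 1.96%, 1.59% and 2.53%. In CL + AX against CL + VE, Ppp1r3b, Pygl and Fbp1 did not overlap with median centring or with trimmed means, each lower in CL + AX. The shares of all genes were then 9.57% and 3.24%. The comparison of CL + AX with CL + VE shares no array with NC but uses the same 2 groups that were each set against CL.

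Ppp1r3b had the smallest p of the 9 genes between the supplements, without passing the adjusted threshold. All 5 CL + AX arrays, at 9.70 to 10.77, lay below all 5 CL + VE arrays, at 10.88 to 11.40. Of the 9 genes it was the only one without overlap in that comparison after quantile normalization. On the signals as deposited the only gene of the 9 without overlap was G6pc, higher in CL + AX, beside 17.5% of all genes. For Ppp1r3b the groups then overlapped, with CL + AX mice at 2101.8 and 1837.6 above the lowest CL + VE mouse at 1819.9. The log2 difference of CL + AX minus CL + VE was -0.93 (SE 0.23, 95% interval -1.41 to -0.46), a 1.91-fold lower signal, with an unadjusted p of 0.00051 and an adjusted p of 0.18 in limma over all probe sets. As deposited it was -0.64 with an adjusted p of 0.11, and with median centring it was -1.19 with an adjusted p of 0.013, in a setting where 1652 probe sets were called and 1616 of them were lower in CL + AX. Against CL the difference was -0.59 in CL + AX (95% interval -1.06 to -0.11, adjusted p = 0.58) and 0.34 in CL + VE (95% interval -0.13 to 0.82, adjusted p = 0.79), in limma. In CL + AX 2 mice were near 9.7 and 3 near 10.7, whereas 4 of the CL + VE mice lay within 11.24 to 11.40. The 3′ to 5′ ratios also separated these 2 groups, at 1.07 to 1.23 in CL + AX and 1.32 to 1.51 in CL + VE for Actb, and at 4.81 to 5.26 and 5.31 to 5.67 for Pcx. Their part in the difference was not tested.

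Pck1 was higher in CL + AX than in CL + VE by 0.29 on the log2 scale (95% interval 0.09 to 0.48, unadjusted p = 0.0055, adjusted p = 0.31, limma), with 4 of 5 CL + AX arrays above all CL + VE arrays. The second probe set of Pck1 had the same direction, 0.46 (95% interval 0.15 to 0.77, adjusted p = 0.31 in limma), but with median centring the brightest gave -0.05. Between CL + VE and CL the second probe set did not overlap, with a difference of -0.50 (95% interval -0.81 to -0.19, unadjusted p = 0.0029, adjusted p = 0.34, limma), where the brightest gave -0.13 (95% interval -0.32 to 0.06). Pygl was -0.22 in CL + AX minus CL + VE (95% interval -0.40 to -0.04, unadjusted p = 0.019, adjusted p = 0.44, limma), with values of 0.03 as deposited and -0.52, at an adjusted p of 0.017, with median centring.

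For the other genes the intervals show what 5 mice per group could resolve. Ppp1r3g differed by 0.22 in CL + AX minus CL (95% interval -1.10 to 1.55), by -0.40 in CL + VE minus CL (-1.73 to 0.93) and by 0.62 in CL + AX minus CL + VE (-0.70 to 1.95). A halving lies within both intervals against CL, and a doubling lies within both intervals of CL + AX. Ppp1r3c differed by 0.19 (-0.51 to 0.88), -0.21 (-0.90 to 0.49) and 0.39 (-0.30 to 1.09) in the same comparisons. Gys2 lay within 0.04 to 0.14 in all 3 comparisons, with intervals from -0.31 at the lowest to 0.50 at the highest. Gckr ran from -0.23 in CL + AX minus CL + VE to 0.20 in CL + VE minus CL, and G6pc from -0.15 in CL + VE minus CL to 0.26 in CL + AX minus CL + VE. Fbp1 lay within -0.04 to 0.01, but with median centring its difference of CL + AX minus CL + VE was -0.46 with an adjusted p of 0.014 in limma, and as deposited it was 0.09.

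**Figure D3:**
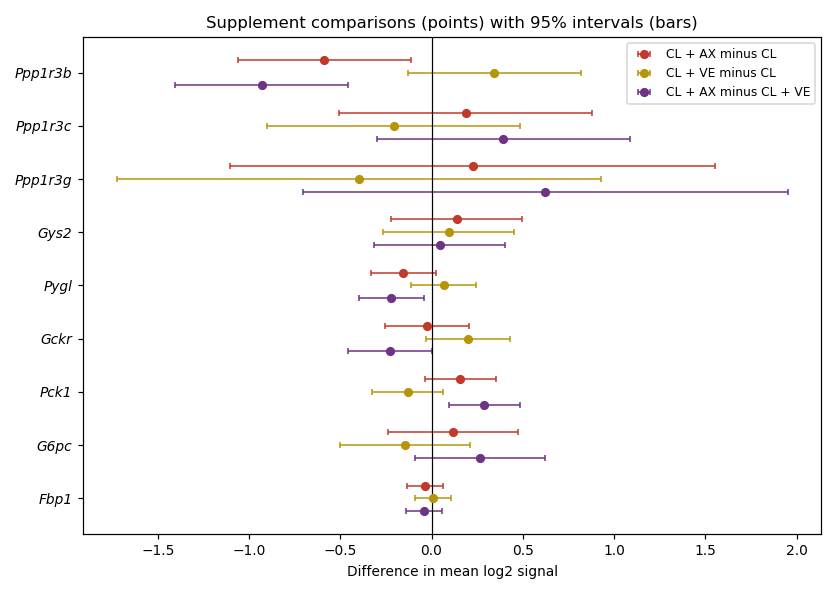
Difference in mean log2 signal (horizontal axis) for the 9 genes in CL + AX minus CL, CL + VE minus CL and CL + AX minus CL + VE, with 95% intervals (bars), 5 arrays per group. Ppp1r3b in CL + AX minus CL + VE lies farthest from 0, at -0.93, and the intervals of Ppp1r3g are the widest.

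Between mice of 1 diet, some of the genes varied together. Each signal was taken as its deviation from the mean of its diet group, and the 36 pairs of the 9 genes were tested over the 20 arrays by permuting arrays within diets (100000 permutations, two-sided, Benjamini-Hochberg adjustment over the 36 pairs). In this permutation test 3 pairs passed an adjusted p of 0.05 by Pearson's r, and 8 had an unadjusted p under 0.05. Pygl and Gckr rose and fell together (r = 0.79, adjusted permutation p = 0.011, rho = 0.77, adjusted permutation p = 0.019). Ppp1r3g ran opposite to Pygl (r = -0.71, adjusted permutation p = 0.011, rho = -0.67, adjusted permutation p = 0.026). It also ran opposite to Gckr by r alone (r = -0.63, adjusted permutation p = 0.042), whereas rho was -0.58 with an adjusted permutation p of 0.16. Without the 2 arrays farthest from the median of the first gene, r was 0.71, -0.69 and -0.64 for the 3 pairs.

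Within the single diets of 5 mice, r between Ppp1r3g and Pygl was -0.91 in CL + AX, -0.75 in CL + VE, -0.74 in CL and -0.50 in NC. For Pygl and Gckr it was 0.77, 0.81, 0.94 and 0.51 in the same order. The calls depended on single mice: without CL replicate 1 none of the 36 pairs passed (adjusted permutation p = 0.068 both for Pygl with Gckr and for Ppp1r3g with Pygl), and Ppp1r3g with Pygl was also lost without CL replicate 2 (0.12) or CL + VE replicate 3 (0.064). Ppp1r3g with Gckr passed in 5 of the 20 fits that each left out 1 array and under none of the 3 other scalings (adjusted permutation p = 0.24, 0.097 and 0.054) or the pseudocount (0.062). Scaling mattered as well, since Ppp1r3g with Pygl gave adjusted permutation p values of 0.19 as deposited, 0.097 after median centring and 0.054 after scaling to a trimmed mean, while Pygl with Gckr passed in all 3. CL replicate 1 had the lowest Ppp1r3g (2.99) and the highest Pygl (12.00) of the CL group, and CL replicate 2 had the highest Ppp1r3g (6.91) and the lowest Pygl (11.50). The same 20 arrays share their scaling, and the 3 pairs share genes.

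**Figure D4:**
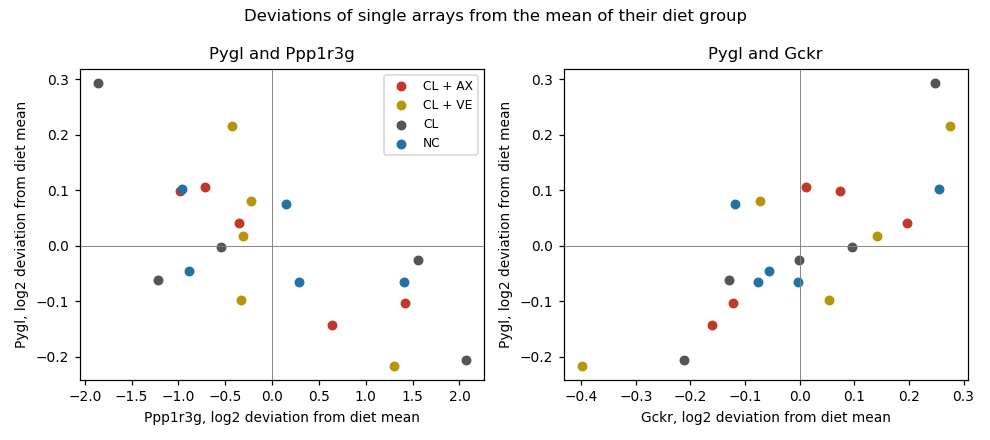
Deviation of Pygl from its diet mean (vertical axes, log2) against the deviation of Ppp1r3g and of Gckr (horizontal axes, log2), 1 point per array, 20 arrays coloured by diet. Pygl falls as Ppp1r3g rises (r = -0.71) and rises with Gckr (r = 0.79), and 1 CL array is the uppermost point in both panels.

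The genes most like Ppp1r3g over all 20 arrays were found among 11397 other genes at or above the median signal, by Pearson's r of the normalized log2 signals, as a description. They were Tbc1d8 (r = 0.95), Gde1 (0.90), Acacb (0.90), Gstt2 (0.89) and Zfand6 (0.88). Tbc1d8 averaged 7.11 in CL + AX, 6.87 in CL + VE, 6.87 in CL and 8.15 in NC. Acacb, the acetyl-CoA carboxylase of the mitochondrial surface, averaged 6.35, 6.21, 6.25 and 8.15 in these groups. All 5 genes averaged higher in NC than in each CL diet, which follows from choosing them by their r with Ppp1r3g over all 4 groups. Within diets, r of the deviations was 0.83 for Tbc1d8, 0.66 for Gde1, 0.63 for Acacb, 0.71 for Gstt2 and 0.70 for Zfand6. These values come from the same arrays that chose the genes, so the choice raises them and they are no separate evidence.

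Around the 9 genes, other genes of the pathway were taken from lists, and these were tested in limma over all probe sets. The lists were also chosen with earlier results of these data known, so their counts are no separate evidence. In CL against NC, 12.0% of all genes rose and 11.3% fell. Brighter genes were called more often: in either direction 34.5% of those at or above the median signal passed, beside 23.3% of all genes. Of 27 other measured genes of glycogen synthesis and breakdown, 4 rose and 4 fell, with a median log2 difference of -0.05 beside -0.04 over all genes. Gbe1, the branching enzyme, rose to 9.32 in CL, against 8.30 in NC, by 1.02 (SE 0.13, adjusted p = 1.1e-05). Ugp2, which makes the UDP-glucose that synthase uses, rose by 0.63 (SE 0.089, adjusted p = 3.2e-05). Gaa, the lysosomal enzyme that degrades glycogen, fell by 0.62 (SE 0.096, adjusted p = 8.4e-05), and Stbd1, a glycogen-binding protein linked to its delivery to lysosomes, fell by 0.74 (SE 0.16, adjusted p = 0.0026). Of the remaining Ppp1r3 family members, Ppp1r3a, Ppp1r3d, Ppp1r3e and Ppp1r3f, none passed, and Ppp1r3e had the smallest SE, with -0.30 (SE 0.14, adjusted p = 0.16). Ppp1r3f had the largest difference of these, -1.21 (SE 0.47, adjusted p = 0.085), on dim signals averaging 2.66 in CL and 3.86 in NC. As deposited 7 of the 27 rose and 0 fell, and with median centring 3 rose and 7 fell. The calls of Gaa (-0.27, adjusted p = 0.19) and Stbd1 (-0.43, adjusted p = 0.20) were lost in limma as deposited. That of Ugp2 was lost with median centring (0.28, adjusted p = 0.15, limma).

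Of 20 other genes of gluconeogenesis and glucose release, 2 rose and 4 fell. Gpd1, the cytosolic glycerol-3-phosphate dehydrogenase, fell by 0.92 (SE 0.13, adjusted p = 2.5e-05), and Gpt2, the mitochondrial alanine aminotransferase, fell by 0.58 (SE 0.088, adjusted p = 7.3e-05), both in limma. Mpc1, a subunit of the mitochondrial pyruvate carrier, rose by 0.47 (SE 0.067, adjusted p = 3.6e-05), and Mdh1, the cytosolic malate dehydrogenase, rose by 0.33 (SE 0.088, adjusted p = 0.011), although Mdh1 turned negative with another scaling. Slc37a4, which carries glucose 6-phosphate to G6pc in the endoplasmic reticulum, fell by 0.47 (SE 0.13, adjusted p = 0.015), a call that was lost as deposited (-0.26, adjusted p = 0.20). As deposited 3 of these genes rose and 2 fell, and with median centring 0 rose and 10 fell. The call of Mpc1 was lost with median centring (0.11, adjusted p = 0.47, limma).

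Of 17 measured genes of glycolysis, 7 rose and 4 fell in CL against NC. Hexokinase 2 (Hk2) rose by 1.41 (SE 0.22, adjusted p = 9.0e-05) and the pyruvate kinase Pkm rose by 1.76 (SE 0.30, adjusted p = 0.00023), while Aldoc fell by 1.66 (SE 0.25, adjusted p = 6.5e-05) and Pgk1 fell by 0.42 (SE 0.066, adjusted p = 0.00011), in limma. The call of Pgk1 was lost as deposited (-0.28, adjusted p = 0.082, limma). Hk1, Hk2, Hk3 and Pkm are known to be sparse in hepatocytes and present in other cells. Pklr, the pyruvate kinase of hepatocytes, had -0.25 (SE 0.15, adjusted p = 0.28). Markers of other cell types moved with this comparison: the macrophage and Kupffer cell list had 13 of 14 genes risen, and its mean level over arrays was 8.14 to 9.88 in CL, against 5.76 to 7.00 in NC. Of the stellate cell markers 8 of 10 rose (7.46 to 8.73 in CL, against 6.48 to 6.91 in NC), of the endothelial markers 6 of 8 and of the bile duct markers 1 of 5. Their part in the results was not tested. In bulk liver, fewer cells of a type and less RNA per cell cannot be told apart.

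Of 26 regulators of glucose production, 2 rose and 12 fell in CL against NC, with a median of -0.30 beside -0.04 over all genes. Insr, the insulin receptor, fell by 0.57 (SE 0.082, adjusted p = 3.4e-05) and Gcgr, the glucagon receptor, fell by 0.52 (SE 0.074, adjusted p = 3.5e-05). The transcription factors Foxo3 and Foxo1, which insulin signalling keeps out of the nucleus, fell by 1.19 (SE 0.19, adjusted p = 0.00010) and 0.98 (SE 0.16, adjusted p = 0.00017), all in limma. The glucocorticoid receptor Nr3c1 rose by 0.43 (SE 0.079, adjusted p = 0.00054) and Irs1 by 0.48 (SE 0.15, adjusted p = 0.027), and Ppargc1a, a coactivator of gluconeogenic genes, had 0.13 (SE 0.27, adjusted p = 0.81). The count depends on the scaling, with 5 risen and 3 fallen as deposited, 0 and 15 with median centring, and 3 and 14 after scaling to a trimmed mean. The calls of Insr (-0.26, adjusted p = 0.16) and Gcgr (-0.26, adjusted p = 0.15) were lost in limma as deposited. With median centring those of Irs1 (0.34, adjusted p = 0.16) and Nr3c1 (0.30, adjusted p = 0.0502) were lost in limma.

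Genes of the core clock were listed because several of the 9 genes are known to follow the time of day and of feeding in mouse liver. Of 18 measured, 3 rose and 8 fell in CL against NC, beside 6 and 6 as deposited. Per1 averaged 6.85 in CL and 8.63 in NC, a difference of -1.79 (SE 0.19, adjusted p = 1.3e-06), and Dbp averaged 7.14 in CL and 9.98 in NC, a difference of -2.84 (SE 0.39, adjusted p = 2.2e-05). Per3 fell by 2.48 (SE 0.38, adjusted p = 7.3e-05) and Tef fell by 0.99 (SE 0.13, adjusted p = 2.2e-05), while Arntl rose by 1.43 (SE 0.25, adjusted p = 0.00025) and Npas2 rose by 3.60 (SE 0.71, adjusted p = 0.00092), all in limma. The size of the Npas2 rise rests on dim signals. Npas2 averaged 5.66 in CL and 2.06 in NC, beside a median of 4.21 over all probe sets. The part of the clock genes in the differences of the 9 genes was not tested. Over the 5 lists, 50 genes were called in CL against NC, and 45 of them kept their sign under the other 3 scalings. In CL + AX against NC 12.0% of all genes rose and 11.3% fell, and in CL + VE against NC 10.2% rose and 7.27% fell. In CL + AX against NC the lists of glycogen, gluconeogenesis, glycolysis, regulators and clock had 5, 3, 7, 2 and 3 risen and 5, 5, 3, 11 and 9 fallen genes, and in CL + VE against NC they had 4, 2, 6, 2 and 2 risen and 2, 2, 3, 11 and 8 fallen. These counts depend on the scaling: in CL + AX against NC the glycogen list had 12 risen and 0 fallen as deposited, the gluconeogenic list 1 and 15 with median centring, and the regulators 6 and 2 as deposited but 0 and 17 with median centring. In CL + VE against NC the regulators had 3 risen and 4 fallen as deposited, and 0 and 14 with median centring.

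Among the CL diets no gene of these 5 lists passed an adjusted p of 0.05 in limma. At an unadjusted p under 0.05, the comparison of CL + AX with CL + VE gave 5 of 27 glycogen genes, 6 of 20 gluconeogenic genes, 5 of 17 glycolytic genes, 11 of 26 regulators and 3 of 18 clock genes, beside 10.2% of all genes. In the same order CL + AX against CL gave 2, 4, 2, 6 and 5 genes, beside 8.05% of all genes. CL + VE against CL gave 1, 3, 3, 4 and 1, beside 7.55%. With median centring 12 of the 20 gluconeogenic genes and 6 of the 26 regulators passed the adjusted p, all lower in CL + AX, and as deposited 0 and 3 passed, all higher in CL + AX, so that no direction can be given for them.

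**Figure D5:**
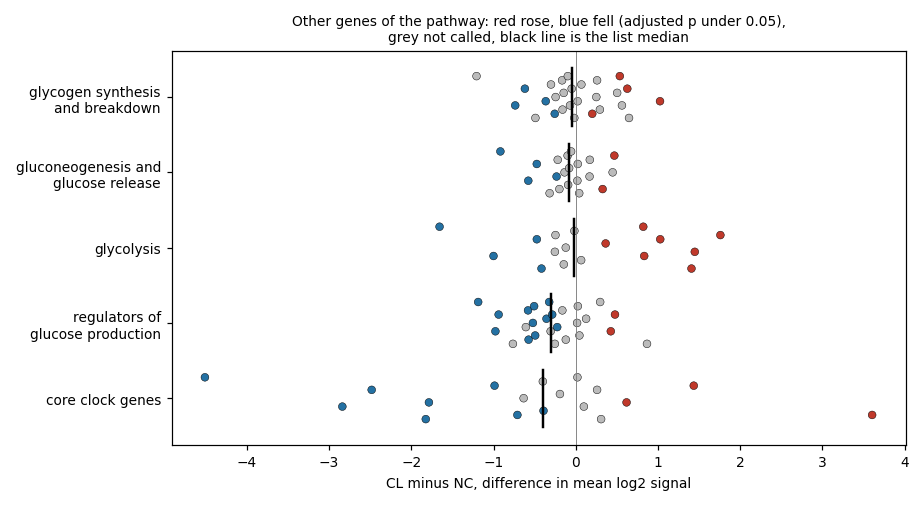
CL minus NC difference in mean log2 signal (horizontal axis) for the other genes of the 5 lists, 1 point per gene, with the list median (black line). Red and blue points passed an adjusted p of 0.05 in limma, and of the 26 regulators 2 are red and 12 are blue in the quantile-normalized values, a split that was 5 and 3 as deposited.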

How the data were processed

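Total RNA of 20 mouse livers was labelled and hybridized, 1 array per mouse. The authors computed the deposited values with MAS5 and used the Subio platform for their analysis. Per the deposited table, each value is a linear intensity (a MAS5 signal) of 1 of 45101 probe sets, with no common scaling. The deposited table names no genome build, and promoters came from RefSeq on GRCm38.p6. The 64 control probe sets were removed, log2 signals were quantile normalized, and the 45037 probe sets left were fitted in limma 3.58.1 under R 4.3.3 as 1 model of 4 diet groups, with a variance trend and Benjamini-Hochberg adjustment over all probe sets (threshold 0.05). Of these probe sets 34945 name 1 gene, 932 several and 9160 none, and a gene was read from its brightest. Every gene of the list was named, with up to 4 genes of smallest p from each pathway list and the 5 genes most correlated with Ppp1r3g. Others named in the text (Ppp1r3e and its relatives, Slc37a4, Hk1, Hk3, Pklr, Nr3c1, Irs1, Ppargc1a, Arntl and Npas2) were chosen after their values were seen. The 9 genes and all lists were chosen with earlier results of these data known. Pathway list genes that no probe set names alone were not analysed here. The fit was tested on simulated data. The number of arrays limits the precision. Alternatives were the signals as deposited, median centring, trimmed-mean scaling (2% trimmed from each end), a pseudocount of 16, bright probe sets only, no variance trend, a replicate block, only the 2 groups compared, the methods' t-test, other probe sets and leaving out each array.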

Additional observations from a re-analysis of the deposited data

Results flagged for a closer look

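In 3 of the 36 sets of 5 arrays (9 genes in 4 diets), 1 array lay far from the other 4, and chance alone gives about 1 in 20. Ppp1r3g in CL + VE replicate 3 was 5.75, where the other 4 mice of that diet lay between 4.02 and 4.22. Gys2 in CL replicate 1 was 10.02, where the others lay between 10.20 and 10.26. Fbp1 in NC replicate 3 was 13.46, where the others lay between 13.38 and 13.40. The CL + VE array with the high Ppp1r3g also had the lowest Pygl (11.56) and the lowest Gckr (9.41) of its diet, and the CL array with the low Gys2 also had the lowest Ppp1r3g (2.99) and the highest Pygl (12.00) of its diet.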

How the results depend on the processing

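Ppp1r3c, Ppp1r3g and Gys2 kept their direction against NC in all 3 CL diets under every alternative, and Pygl did so except in CL + AX with median centring (-0.18). Probe sets called in CL against NC numbered 7910, with 3444 by the methods' t-test and 6769 to 8104 without single arrays. In CL + AX against CL 1 was called, with 0 as deposited, with median centring, without the trend, with the replicate block and by the t-test, and 0 to 2 without single arrays. In CL + VE against CL 0 were called (3412 at an unadjusted p under 0.05 in limma), with 26 as deposited, 3 with the replicate block, 3 in only the 2 groups and 0 to 2 without single arrays. In CL + AX against CL + VE 1 was called, with 1886 as deposited, 1652 with median centring, 0 with the pseudocount and without the trend, 5 with the block, 24 in only the 2 groups and 0 to 13 without single arrays. CL + AX against NC gave 7762, with 16596 as deposited, 3964 by the t-test and 6331 to 7981 without single arrays. CL + VE against NC gave 5895, with 1632 by the t-test and 4855 to 6282 without single arrays. Of the calls in CL against NC 52.8% were higher, beside 95.9% as deposited, 41.6% with median centring and 62.9% with trimmed means. These shares were 52.6%, 97.7%, 29.1% and 66.6% in CL + AX against NC, and 54.9%, 86.7%, 48.7% and 63.5% in CL + VE against NC. As deposited the median probe set moved by 0.40 in CL, 0.63 in CL + AX and 0.17 in CL + VE against NC, by 0.19 in CL + AX and -0.23 in CL + VE against CL, and by 0.43 in CL + AX against CL + VE. Small differences turned sign. With median centring, CL + AX minus CL was -0.034 for Gys2, -0.032 for Pck1 (-0.040 on its second probe set) and -0.090 for G6pc, CL + VE minus CL was 0.017 for Pck1, and CL + AX minus CL + VE was -0.20 for Gys2, -0.050 for Pck1 and -0.057 for G6pc. As deposited, CL + AX minus CL was 0.081 for Gckr, CL + VE minus CL was -0.11 for Gys2, -0.097 for Pygl, -0.016 for Gckr and -0.096 for Fbp1, and CL + AX minus CL + VE was 0.025 for Pygl, 0.097 for Gckr and 0.090 for Fbp1. Without single arrays, CL + AX minus CL ran from -0.24 to 0.74 for Ppp1r3g and from -0.080 to 0.035 for Gckr, CL + VE minus CL from -0.86 to 0.12 for Ppp1r3g and from -0.012 to 0.024 for Fbp1, and CL + AX minus CL + VE from -0.028 to 0.11 for Gys2. Beside the 3 correlated pairs, 5 pairs passed as deposited, 1 with median centring, 1 with trimmed means and 0 to 4 without single arrays. The cause of these shifts was not tested. The replicate numbers were not taken as pairs, since the methods name no pairing. Deviations of arrays with 1 number in different groups had a mean r of 0.042 (-0.20 to 0.31), beside -0.011 for other numbers. In 21 of 60 cases an array correlated best with its own number among the 5 arrays of another group. These values do not settle whether the numbers mark pairs. The replicate block gave 8076, 7917 and 6032 calls in CL, CL + AX and CL + VE against NC and changed no call of the 9 genes among the CL diets.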
